A study of Mus musculus with 2 samples.

Results

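Bone morphogenetic proteins (BMPs) and activins are secreted dimers of the transforming growth factor beta superfamily, and 10 genes of this group were followed here in the mouse uterus. They were taken by symbol from a list that holds the BMP ligands Bmp2, Bmp4 and Bmp7, the activin subunits Inhba and Inhbb, the secreted antagonists Fst, Nog, Grem1 and Chrd, and the membrane pseudoreceptor Bambi. All 10 were present among the 32285 genes of both count matrices. The control library came from females with floxed Prickle1 alleles (Prickle1 f/f), and the library labelled cKO from females with the same alleles and a Cre recombinase driven by Ltf (Prickle1 f/f Ltf-cre, Ltf-iCre in the series text). Both groups therefore carried the floxed alleles, and both were 6 months old. Each library was a pool of 3 mice, so there was 1 sample per group, no replicate check and no test between genotypes. Genotype, animals and library preparation cannot be told apart. A separate genotype entry calls both samples C57BL/6J wild-type, which differs from the titles used here for grouping. Ltf encodes lactoferrin and is transcribed in the uterine epithelium, so the driver is aimed at epithelial cells.

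BMP ligands bind type I and type II receptor kinases that phosphorylate Smad1, Smad5 and Smad9, whereas activins act through Smad2 and Smad3. Inhba and Inhbb encode the beta subunits of activin A and activin B, and the same subunits join the alpha subunit Inha to form inhibins. Follistatin, the product of Fst, binds activins almost irreversibly, while noggin (Nog), gremlin 1 (Grem1) and chordin (Chrd) sequester BMPs outside the cell. Bambi resembles a type I receptor without a kinase domain. In the mouse uterus Bmp2 is needed for stromal cells to decidualize, and uterine follistatin is needed for full receptivity to the embryo.

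The promoters of the activin subunits are shown because the stromal results below turn on these genes, and the sequences differ in composition. The 250 bases before the annotated start were taken from a set of RefSeq promoters (GRCm38.p6). Of the 10 genes 5 were matched in that set, which does not show that RefSeq lacks the others. Capitals mark a TATAAA match.

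Inhba, chr13:16011601-16011850, plus strand: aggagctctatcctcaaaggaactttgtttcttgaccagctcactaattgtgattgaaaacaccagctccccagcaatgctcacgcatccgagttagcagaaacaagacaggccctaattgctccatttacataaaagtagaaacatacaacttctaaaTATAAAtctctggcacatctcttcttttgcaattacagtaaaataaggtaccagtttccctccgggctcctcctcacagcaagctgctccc

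Inhbb, chr1:119422249-119422498, minus strand: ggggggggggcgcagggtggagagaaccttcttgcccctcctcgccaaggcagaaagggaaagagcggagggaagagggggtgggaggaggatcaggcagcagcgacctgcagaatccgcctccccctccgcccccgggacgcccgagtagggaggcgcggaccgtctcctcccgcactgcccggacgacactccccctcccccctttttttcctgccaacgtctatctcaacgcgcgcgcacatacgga

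The Inhba window was 43.2% G and C, and the Inhbb window 68.0%, against a median of 52.4% over 32851 promoters of that set. TATAAA stood 91 bases before the Inhba start, and 12.4% of all promoters held that string in windows of the same 250 bases. Neither window held TGACGTCA (1.55% of promoters), GTCTAGAC (0.167%) or GGCGCC (9.59%), and neither held the shorter string TGACG (17.8%), which also lies inside TGACGTCA. Both strands were searched. These are matches of letters and not mapped binding sites.

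Barcodes that reached 500 detected genes with no more than 20% of mitochondrial counts were taken as cells. There were 3653 in control and 4950 in cKO, with a median of 4650 and 5944 unique molecular identifiers (UMIs, 1 per captured transcript). The libraries held 45035801 and 57145553 UMIs, and 5 cell barcodes occurred in both. Each cell was placed in a gate by a UMI of Epcam (epithelial, 918 control and 58 cKO cells), Pdgfra (stromal, 564 and 1362), Actg2 (muscle, 275 and 471), Ptprc (immune, 665 and 1525) or Msln (mesothelial, 25 and 32). A shallow gate, filled first, held barcodes under 5000 UMIs with a UMI of Uts2 or Pde1a (134 and 123). Among them 47 in control and 47 in cKO had a UMI of Pdgfra, and 19 and 30 one of Actg2. These were not placed in the stromal or muscle gate. Of the other cells, those with several gating genes (211 and 400) or none (861 and 979) were left out of the gates. All 6 markers of their own type were highest in the epithelial, muscle, immune and mesothelial gates of both libraries. Of 6 stromal markers, 2 in control and 4 in cKO were highest in the stromal gate, the others being highest in the mesothelial or shallow gate. The 58 cKO epithelial cells carried 614 CPM (UMIs per 1000000 of the gate) of muscle markers, against 31.0 in control, and had a median depth of 15831.5 against 6092 UMIs. Of those muscle sums Acta2 gave 565 CPM in cKO and 9.37 in control, while Myh11 was at 0 in cKO and 1.29 CPM in control. The deleted gene itself could not check the labels: Prickle1 had 12 UMIs (0.739 CPM) in the control epithelial gate and 4 (1.92 CPM) in cKO, both under the level of cell-free barcodes. Its level over all cells was 2.65 CPM (control) and 8.24 CPM (cKO), and the labels do not state whether its counted 3′ end lies in the floxed part.

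Levels are UMIs summed over the cells of a gate and given as CPM of the gate total, with ranges in parentheses for exact 95% intervals that cover counting error only. Cell-free RNA, profiled from barcodes of 1 to 100 UMIs, is given beside them. It was richer in most of these genes in cKO, at 133 CPM in control and 399.5 in cKO for Inhba, 119 and 486 for Inhbb, 46.9 and 168 for Fst, and 16.3 and 48.1 for Nog. A gene was called apart when the libraries differed at least 2-fold with at least 20 UMIs in the higher one. Since 3′ counts are not scaled to transcript length, values are compared between libraries and gates and not between genes.

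**Figure D1:**
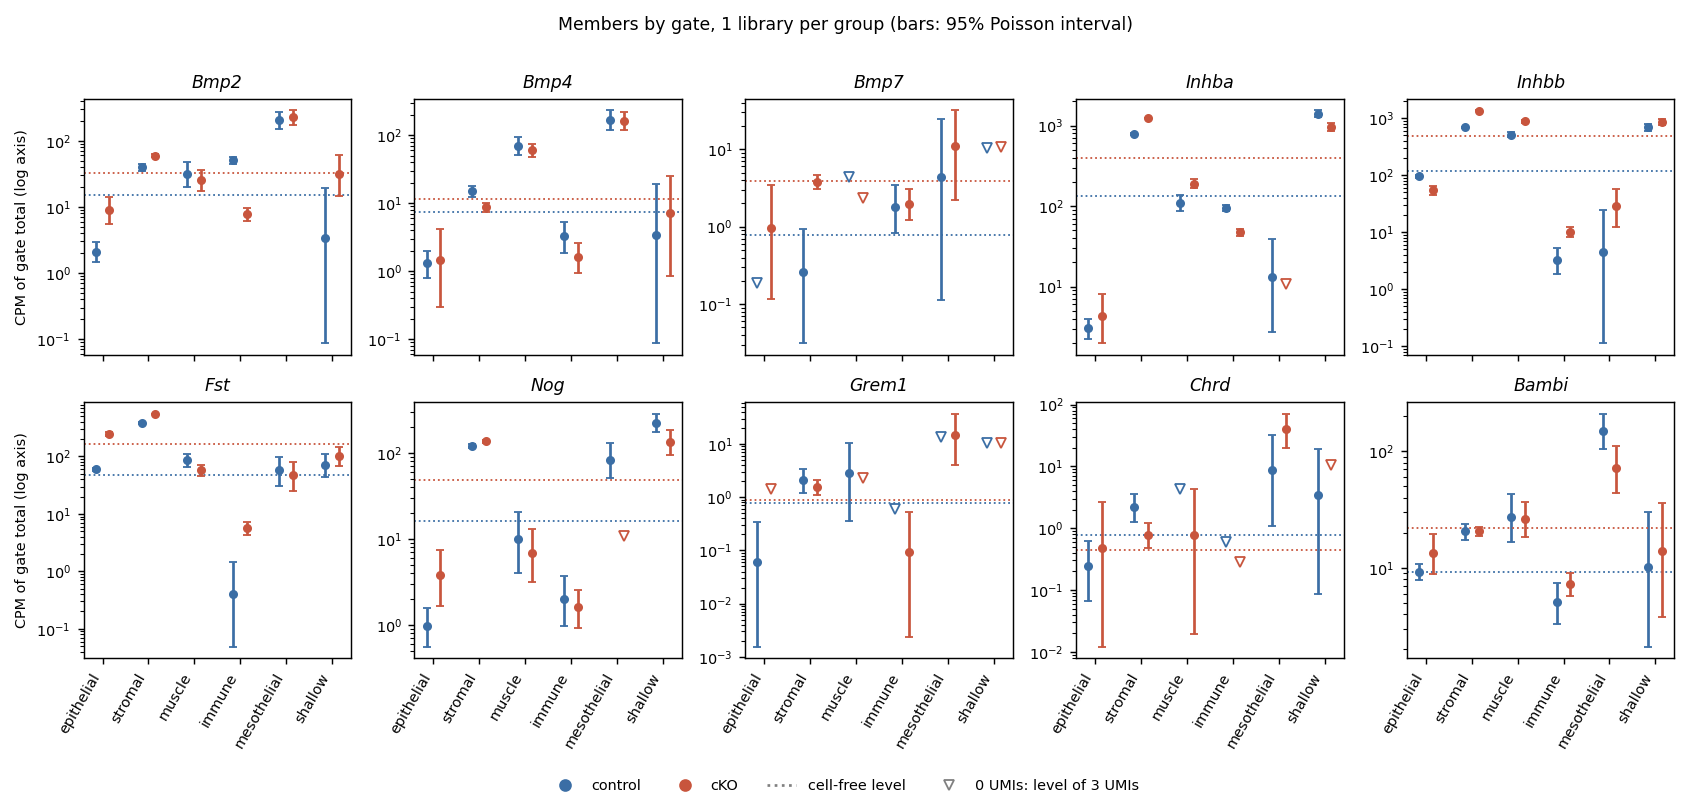
Level of each of the 10 genes in 6 gates, in CPM of the gate total on a log axis, for the control and cKO libraries (1 library each). Bars are 95% Poisson intervals, dotted lines the cell-free level, and open triangles stand at the level of 3 UMIs where no UMI was seen. Inhbb was highest in the stromal gate of both libraries, overlapping the shallow gate in control, and Bmp2, Bmp4 and Bambi in the mesothelial gate.

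Both activin subunits were higher in the cKO stromal gate, and in both libraries they stood above the cell-free level there. Inhba (chromosome 13, 16011851 to 16031621 in GRCm38, plus strand) had 6143 UMIs or 793 CPM in control and 30031 UMIs or 1244 CPM in cKO, a ratio of 1.57 (1.53 to 1.61). Inhbb (chromosome 1, 119415465 to 119422248, minus strand) had 697 and 1365 CPM, a ratio of 1.96 (1.90 to 2.01), just short of 2-fold. Over all cells the ratios were larger, 3.11 for Inhba and 3.29 for Inhbb, with the stromal gate making up 15.4% of control and 27.5% of cKO cells. Follistatin moved the same way: Fst (chromosome 13, 114452290 to 114458951, minus strand) had 387 CPM in control and 548 in cKO stromal cells, a ratio of 1.41 (1.36 to 1.47). Of the 9 members that could be tested in this gate, only Bmp7 was called apart, and it was higher in cKO. Of all genes tested there 11.6% were apart, 6.28% higher and 5.31% lower. The median log2 ratio of those 9 was 0.50, against -0.016 over all 12666 genes tested. Immune markers in this gate summed to 65.1 CPM in control and 461 in cKO, with none of 6 at 0. Of those sums Srgn alone gave 55.0 and 447 CPM, and each of the other 5 was at most 4.93 CPM in either library. Muscle markers summed to 653 and 728 CPM. Their part, and that of the cell-free RNA, was not tested.

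The activin subunits were also found in more stromal cells. With each cell thinned to 5000 UMIs, 456 control and 1231 cKO stromal cells could be compared, after 108 and 131 shallower cells were left out. Inhba was detected in 41.4% (36.9 to 46.1) of control and 58.2% (55.4 to 61.0) of cKO cells, and Inhbb in 57.2% (52.6 to 61.8) and 81.3% (79.0 to 83.5). Cells with both subunits made up 28.1% in control and 48.3% in cKO, and cells with neither 29.4% and 8.77%. Immune cells at the same depth, used as background for Inhbb, had it in 0.505% and 3.46%. They had Inhba in 5.56% and 3.23%, but control macrophages held Inhba UMIs (described further on), so these shares are no background for Inhba. Without thinning, Inhba was seen in 279 of 564 control and 918 of 1362 cKO stromal cells, and Inhbb in 347 and 1150.

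Inhba and Inhbb were spread differently over the stromal cells. In cells of at least 1000 UMIs the median Inhba level was 0 in control and 242 CPM in cKO, and the highest cell reached 24520.0 CPM in control and 28914 in cKO. The median Inhbb level was 215 CPM in control and 1031 in cKO, and no cell passed 5273 or 5718 CPM. A single cell held 6.90% of the control Inhba UMIs in this gate.

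**Figure D2:**
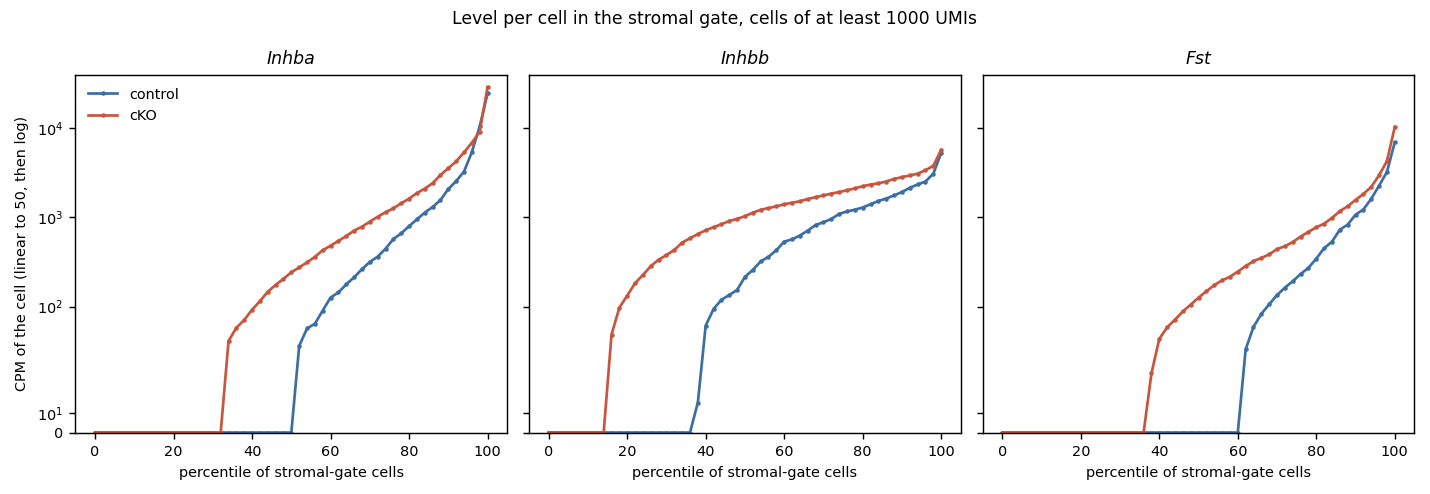
CPM of Inhba, Inhbb and Fst in single stromal-gate cells of at least 1000 UMIs, ordered by percentile within each library (linear axis to 50 CPM, then log). The cKO curve leaves 0 at a lower percentile for each gene, and for Inhba the curves meet in the highest cells.

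Part of the stromal gate was split by the marker set with the highest UMI sum into 5 sub-gates, named by their genes: Cilp-Sfrp4-Gpr83 (104 control and 363 cKO cells), Hsd11b2-Rorb-Syt2 (16 and 213), Inmt-Myoc-Scara5 (77 and 14), Il6-Cxcl5-Cxcl1 (123 and 331) and Cyp26b1-Dio2-Prrx2 (48 and 265). The other 196 control cells (34.8% of the gate) and 176 cKO cells (12.9%) were in no sub-gate; in them Inhba was 1.49-fold, Inhbb 1.56-fold and Fst 1.46-fold higher in cKO. Among the 5, the Inhba ratio was highest in Il6-Cxcl5-Cxcl1 cells. In the Il6-Cxcl5-Cxcl1 sub-gate, whose genes encode inflammatory cytokines, Inhba had 822 CPM in control and 2071 in cKO, a ratio of 2.52 (2.40 to 2.65), and Inhbb had 446 and 955 CPM, a ratio of 2.14 (2.00 to 2.29). These were the 2 members called apart there, of 7 tested, where 8.17% of all genes were. Inhba was 1.11-fold higher in the Cilp-Sfrp4-Gpr83 sub-gate and 1.06-fold higher in the Cyp26b1-Dio2-Prrx2 sub-gate. In the Inmt-Myoc-Scara5 sub-gate it was 1.60-fold lower (0.98 to 2.79), at 240.3 and 150.2 CPM. In the Hsd11b2-Rorb-Syt2 sub-gate it was 1.74-fold lower, with 61.2% of the control UMIs in 1 of 16 cells. Leaving the Il6-Cxcl5-Cxcl1 cells out lowered the stromal Inhba ratio to 1.27 (1.23 to 1.32) and the Inhbb ratio to 1.86. Leaving the Inmt-Myoc-Scara5 cells out gave 1.41 for Inhba and 1.75 for Inhbb. Leaving out Cilp-Sfrp4-Gpr83 or Hsd11b2-Rorb-Syt2 cells gave 1.74 for Inhba in each case and 2.04 and 2.03 for Inhbb, past 2-fold, and leaving out Cyp26b1-Dio2-Prrx2 cells gave 1.73 and 1.91.

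Inhbb was higher in 4 of the 5 sub-gates, by 1.22-fold to 2.14-fold, and 1.29-fold lower (0.784 to 2.25) in the Inmt-Myoc-Scara5 sub-gate, which held few cKO cells.

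Fst had its largest difference in the Hsd11b2-Rorb-Syt2 sub-gate, with 72.3 CPM in control and 438 in cKO, a ratio of 6.07 (3.87 to 10.1). There 18 of the 19 control UMIs lay in 1 cell, against 134 positive cells in cKO. Fst was 1.60-fold and 1.62-fold higher in the Cilp-Sfrp4-Gpr83 and Il6-Cxcl5-Cxcl1 sub-gates, and 1.48-fold lower in the Cyp26b1-Dio2-Prrx2 sub-gate (395 and 267 CPM). Its 3.54-fold higher level among Inmt-Myoc-Scara5 cells rested on 1 of 14 cKO cells, which held 82.1% of the UMIs.

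**Figure D3:**
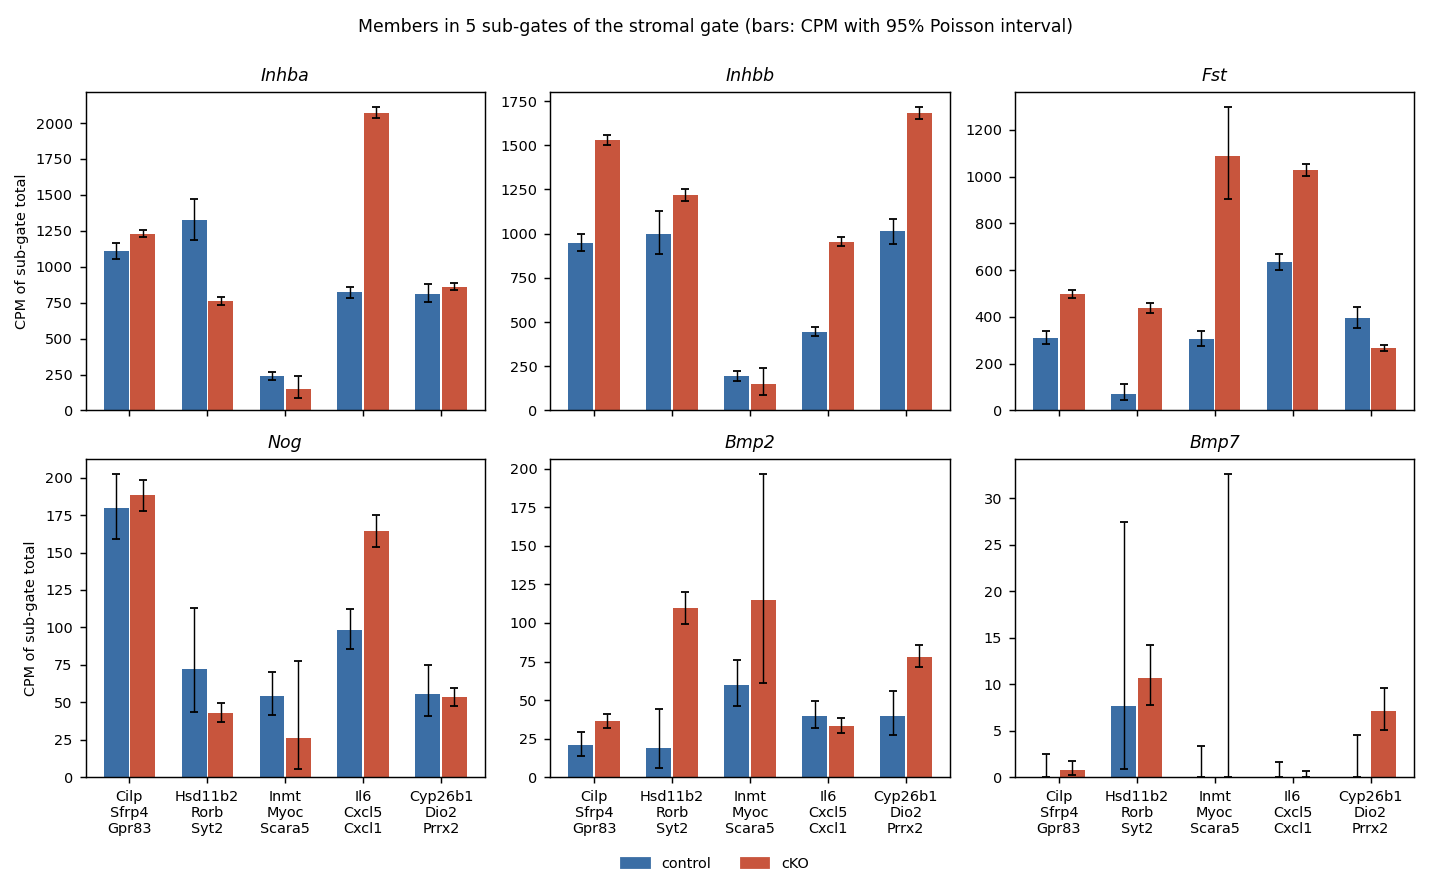
Levels of 6 genes in 5 stromal sub-gates, in CPM of the sub-gate total, for control and cKO; bars carry 95% Poisson intervals. Inhba was highest in the cKO Il6-Cxcl5-Cxcl1 cells at 2071 CPM, and Bmp7 was seen mainly in the cKO Hsd11b2-Rorb-Syt2 and Cyp26b1-Dio2-Prrx2 cells.

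Activin subunits and Fst were found together in more of the cKO stromal cells. An activin subunit and Fst were both detected in 19.7% (16.2 to 23.7) of control and 48.1% (45.3 to 50.9) of cKO cells at 5000 UMIs, and in 0 of 396 control immune cells (which allows a share of up to 0.758%) and 1 of 837 cKO immune cells at that depth. Fst, with or without a subunit, was in 32.7% of control and 52.5% of cKO stromal cells. Cells with no activin subunit made up 29.4% and 8.77%. Whether the joint share differed from what these separate shares give was not tested. A BMP ligand together with Nog was in 5.70% (3.76 to 8.24) of control and 5.28% (4.10 to 6.68) of cKO cells, with overlapping intervals. In control, Fst was in 27.5% of cells with Inhba and 36.3% of cells without it; in cKO the order was the other way, 56.2% and 47.3%. The control intervals overlapped (21.3 to 34.5 and 30.6 to 42.4), and the cKO intervals did not (52.5 to 59.9 and 42.9 to 51.7). In both libraries Fst was found less often in cells with Inhbb than in cells without it. The shares were 27.2% (21.9 to 33.0) and 40.0% (33.1 to 47.2) in control. In cKO they were 50.5% (47.4 to 53.7) and 60.9% (54.2 to 67.2). Nog went with Inhbb in both libraries: it was in 34.1% of control cells with Inhbb and 16.4% without, and in 30.9% and 18.7% in cKO. Bmp2 went the other way, being in 14.3% of cKO cells with Inhbb and 26.5% of those without. In control its shares were 9.96% (6.61 to 14.3) and 16.4% (11.5 to 22.4), with overlapping intervals. These cells share a library, so the shares describe the 2 libraries.

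Nog (chromosome 11, 89300638 to 89302332, minus strand) differed little in the stromal gate, with 121 CPM in control and 136 in cKO, a ratio of 1.13 (1.05 to 1.22). At 5000 UMIs it was found in 26.5% (22.5 to 30.8) of control and 28.6% (26.1 to 31.2) of cKO cells, so the intervals overlapped. In the Il6-Cxcl5-Cxcl1 sub-gate it was 1.67-fold higher in cKO (98.3 and 164 CPM). It was 1.68-fold lower (0.989 to 2.70) in Hsd11b2-Rorb-Syt2 cells, at 72.3 and 43.0 CPM, and 2.05-fold lower (0.669 to 10.2) in Inmt-Myoc-Scara5 cells on 60 and 3 UMIs. In stromal cells of no sub-gate it was 2.02-fold higher (1.77 to 2.33), at 174 and 353 CPM.

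Among the BMP ligands, Bmp2 (chromosome 2, 133552159 to 133562885, plus strand) had 39.8 CPM in control and 59.0 in cKO stromal cells, a ratio of 1.48 (1.31 to 1.68). Of the sub-gates, Hsd11b2-Rorb-Syt2 had the highest Bmp2 ratio, with 5 UMIs in control and 453 in cKO, 19.0 and 109 CPM, a ratio of 5.75 (2.45 to 17.8). Without those cells the stromal Bmp2 ratio was 1.20 (1.05 to 1.37). In this sub-gate, which had only 16 control cells, Bmp2 and Fst were the 2 members called of 8 tested, and 24.4% of all genes were called. Bmp4 (chromosome 14, 46383520 to 46390669, minus strand) was 1.72-fold lower (1.36 to 2.17) in cKO stromal cells, with 14.8 and 8.62 CPM, and the cKO value lay under the cell-free level of 11.4 CPM. In stromal cells of no sub-gate it had 48 and 16 UMIs, 26.0 and 9.37 CPM, 2.78-fold lower in cKO (1.55 to 5.24). In the sub-gates Bmp4 was higher in cKO in 4 of 5, by 1.15-fold to 2.52-fold, and 1.53-fold lower in Il6-Cxcl5-Cxcl1 cells. The sub-gate values rest on few UMIs, the 2.52-fold value in Inmt-Myoc-Scara5 cells on 31 and 8, and all 5 intervals include 1.

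Bmp7 (chromosome 2, 172868012 to 172940321, minus strand) was the stromal member called apart. It had 2 UMIs in control and 92 in cKO, 0.258 and 3.81 CPM, a ratio of 14.8 (3.97 to 124), while the cell-free level was 0.776 and 3.94 CPM. After thinning to 1000 UMIs the log2 ratio fell from 3.57 to 1.52 and the call was lost. Of the cKO UMIs, 44 lay in Hsd11b2-Rorb-Syt2 cells and 41 in Cyp26b1-Dio2-Prrx2 cells. Both control UMIs lay in Hsd11b2-Rorb-Syt2 cells, and within that sub-gate the levels were 7.61 and 10.6 CPM, a ratio of 1.40 (0.364 to 11.9). That sub-gate held 16 of 564 control and 213 of 1362 cKO stromal cells. At this depth no Bmp7 difference was detectable within those cells. In Cyp26b1-Dio2-Prrx2 cells Bmp7 had 0 and 41 UMIs, at least 1.91-fold higher in cKO when 0 is read as up to 3 UMIs; the 95% interval of the ratio starts at 1.49.

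The rare antagonists gave few counts. Grem1 (chromosome 2, 113746164 to 113758646, minus strand) had 16 and 37 stromal UMIs, 2.07 and 1.53 CPM, a ratio of 0.742 (0.403 to 1.43). In Cilp-Sfrp4-Gpr83 cells it had 2 and 20 UMIs, 2.21-fold higher (0.537 to 19.5), and over all cells of the libraries it was 1.83-fold higher (1.17 to 2.94). Chrd (chromosome 16, 20733127 to 20742384, plus strand) had 17 and 19 UMIs, too few for a call, and 2.79-fold less in cKO (1.36 to 5.66). Bambi had 20.5 CPM in control and 20.7 in cKO, a ratio of 1.01 (0.841 to 1.21), but its sub-gates differed in direction. It was 2.70-fold lower (1.35 to 5.12) in Cyp26b1-Dio2-Prrx2 cells, on 14 and 37 UMIs, and 1.76-fold higher (1.15 to 2.81) in Cilp-Sfrp4-Gpr83 cells, on 24 and 191.

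**Figure D4:**
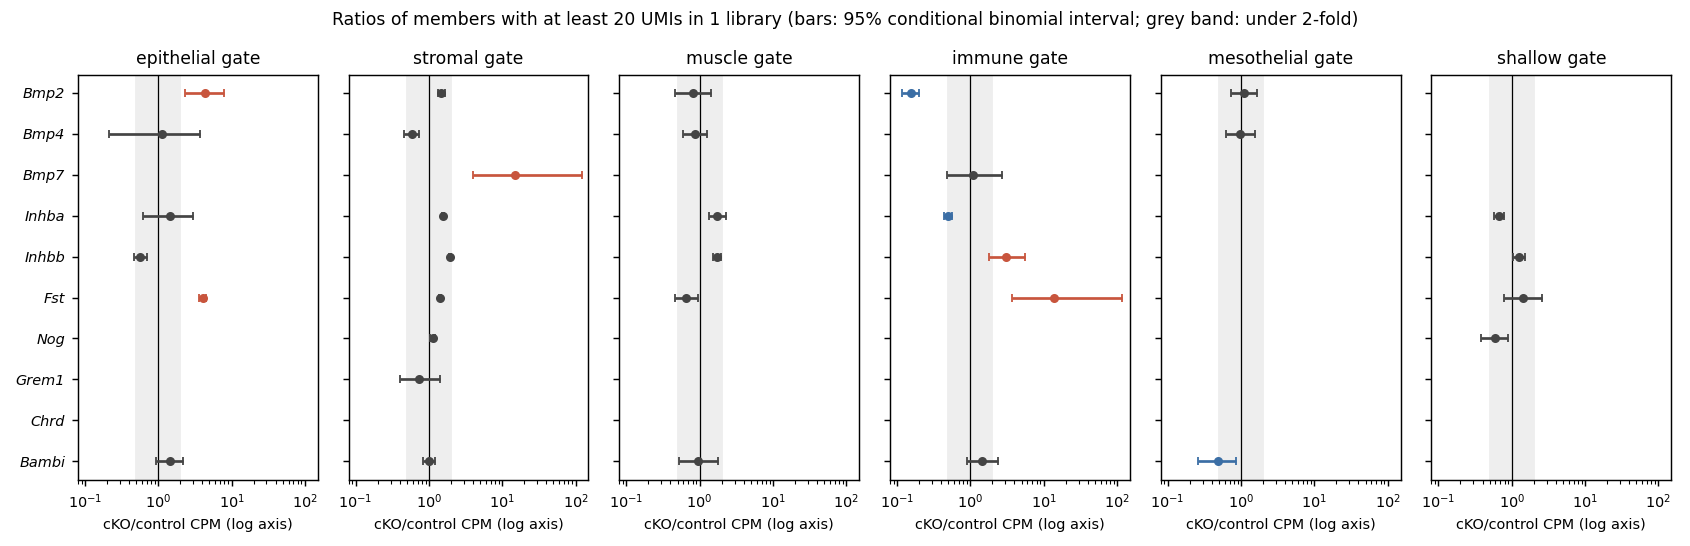
Ratio of cKO to control CPM on a log axis for members with at least 20 UMIs in 1 library, by gate, with 95% conditional binomial intervals. Red points are at least 2-fold higher in cKO, blue points at least 2-fold lower, grey points are less than 2-fold apart. Bmp7 in the stromal gate and Fst in the immune gate have the widest intervals.

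In the epithelial gate, at which the deletion is aimed, Fst was the member with the most UMIs among those called. It had 980 UMIs or 60.4 CPM in control and 512 UMIs or 246 CPM in cKO, a ratio of 4.07 (3.65 to 4.53), against cell-free levels of 46.9 and 168 CPM. The control UMIs came from 153 of 918 cells and the cKO UMIs from 21 of 58, with 31.2% in 1 cell. Fst stayed at least 2-fold higher in all 10 alternative analyses. Bmp2 was also called, with 34 and 19 UMIs, 2.09 and 9.12 CPM, but both levels lay under the cell-free level and 52.6% of the cKO UMIs were in 1 cell. With 2 Epcam UMIs required, the log2 ratio of Bmp2 fell from 2.14 to 0.27. These were 2 of 6 members tested, both higher in cKO, as were 20.2% of all genes tested. Lower in cKO were 13.1%, so that 33.3% of all genes were apart. Inhbb was 1.75-fold lower (1.44 to 2.13) in cKO, with 95.5 and 54.7 CPM. Both values lay under the cell-free level, and after thinning the log2 ratio changed from -0.80 to 0.60. Acta2, named above, was higher in the same 58 cells. So was the sum of endothelial markers, 3.27 CPM in control and 150 in cKO, of which Prox1 gave 0.246 and 95.5. Stromal markers summed to 91.5 CPM in control and 204 in cKO. Their part in these ratios was not tested.

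The immune gate had 4 of 6 tested members apart, 2 in each direction, and 19.5% of all genes were apart there (12.6% higher and 6.87% lower). Bmp2 had 250 UMIs or 50.6 CPM in control and 82 UMIs or 7.74 CPM in cKO, 6.54-fold lower (5.07 to 8.49). The control level lay above the cell-free level of its library, and the cKO level under it. A single control cell held 44.8% of the UMIs, but Bmp2 was at least 2-fold lower in all 10 alternatives. In the macrophage sub-gate (immune cells assigned by C1qa, a complement gene of macrophages), which held 229 of the 250 control UMIs, Bmp2 was 3.51-fold lower (2.43 to 5.22), at 139 and 39.7 CPM. That single control cell held 112 of the 229 UMIs. Without it the control level was 71.7 CPM, less than 2-fold above the cKO level, and without the top cell of each library Bmp2 was 2.17-fold lower (1.42 to 3.44). The sub-gate made up 159 of 665 control and 83 of 1525 cKO immune cells.

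Inhba followed Bmp2 in these macrophages. It had 331 UMIs in 18 control cells and 6 UMIs in 5 cKO cells, 201 and 7.22 CPM, 27.9-fold lower in cKO (12.7 to 76.6), and 26.7-fold lower without the top cell of each library. Bmp2 and Inhba were the only members with enough UMIs in that sub-gate, and 13.1% of all genes were apart there. Over the whole immune gate Inhba was 2.01-fold lower (94.7 and 47.0 CPM), with 52.8% of the cKO UMIs in 1 cell. When cells with several gating genes were kept, the direction turned, from a log2 ratio of -1.01 to 0.76, and leaving out cells with high doublet scores brought it to -0.99, just inside 2-fold.

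Inhbb and Fst were higher in the cKO immune gate but at low levels. Inhbb had 3.24 CPM in control and 10.01 in cKO, a ratio of 3.09 (1.82 to 5.60). Fst had 2 and 60 UMIs, 0.405 and 5.66 CPM, a ratio of 14.0 (3.71 to 118), with 1 cell holding 50% of the cKO UMIs. With cells of several gates kept, the Fst log2 ratio fell from 3.50 to 0.45 and its call was lost. All 4 levels lay under the cell-free levels. Stromal markers summed to 64.1 CPM in the control and 106 in the cKO immune gate, and their part was not tested. Bmp7 had 9 and 21 immune UMIs, 1.82 and 1.98 CPM, with 6 in each library coming from the T-cell sub-gate.

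No member was called in the muscle gate, of 6 tested, where 9.45% of all genes were apart, 6.39% higher and 3.06% lower. Inhbb had 519 CPM in control and 894 in cKO, a ratio of 1.72 (1.53 to 1.95), and after thinning to 1000 UMIs it was found in 19.7% and 42.5% of cells. Both levels lay above the cell-free level. Inhba had 110.1 and 190.0 CPM, a ratio of 1.73 (1.33 to 2.26), beside cell-free levels of 133 and 399.5 CPM, with 38.4% of the cKO UMIs in 1 cell. After thinning, the direction of the muscle-gate Inhba log2 ratio turned from 0.78 to -0.74. Bmp4 had 69.5 and 59.7 CPM, a ratio of 0.859 (0.591 to 1.26), above its cell-free levels of 7.37 and 11.4 CPM. Of the control Fst UMIs in this gate, 95% lay in 1 cell, and without the top cell of each library the log2 ratio went from -0.60 to 2.99. The gate also carried stromal markers, 1676 CPM summed in control and 1854 in cKO, and their part was not tested.

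The mesothelial gate, with 25 and 32 cells, had the highest level of Bmp2, Bmp4 and Bambi in both libraries, and of Bmp7 and Chrd on few UMIs. Bmp2 had 204 CPM in control and 224 in cKO, a ratio of 1.10 (0.741 to 1.65), and Bmp4 had 168 and 163 CPM, a ratio of 0.969 (0.615 to 1.53). Bambi had 34 and 20 UMIs, 150.4 and 72.4 CPM, 2.08-fold lower in cKO (1.16 to 3.81). It was the 1 member called of 3 tested, and 16.7% of all genes were apart there, 12.2% higher and 4.5% lower. The call was lost in 4 of 10 alternatives, among them the mean over cells (log2 ratio -0.30 in place of -1.04). Thinning to 1000 UMIs was another, because no member of this gate then reached 20 UMIs. The log2 ratio of Bambi was -2.69 there. Endothelial markers in the gate summed to 17.7 CPM in control, with 5 of 6 at 0, and to 351 in cKO, and their part was not tested. Chrd had 2 and 11 UMIs in this gate, 8.85 and 39.8 CPM. Nog had 19 UMIs in control, 17 of them in 1 cell, and 0 in cKO, which allows up to 10.9 CPM.

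In the shallow gate no member of 4 tested was called, and 13.7% of all genes were apart, 8.97% higher and 4.69% lower. Inhba had 1402 CPM in control and 955 in cKO, 1.47-fold lower (1.26 to 1.72), and Nog had 226 and 133 CPM, 1.69-fold lower (1.12 to 2.59). Inhbb had 691 and 857 CPM, a ratio of 1.24 (1.03 to 1.50). Stromal markers in the gate summed to 13232 CPM in control and 7666 in cKO, and muscle markers to 2417 and 5225. The gate's own genes also shifted: Uts2 had 520 CPM in control and 98.3 in cKO, and Pde1a 612 and 643. The part of these markers and gating genes in the Inhba and Nog values was not tested.

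The order of the gates was shared by some genes. In control the order for Inhba was shallow, stromal, muscle and immune gate, with overlapping intervals between muscle and immune, and for Nog shallow, stromal and mesothelial, with overlap between the last 2. In cKO the stromal gate stood first for both, with an interval that overlapped the shallow gate's for Nog. Bmp2, Bmp4 and Bambi stood highest in the mesothelial gate, and for Bmp4 and Bambi the muscle and stromal gates came next in both libraries, although the 2 overlapped for Bambi. Across 12 profiles (6 gates in 2 libraries) Bmp4 and Bambi had a Pearson correlation of log2(CPM + 1) of 0.90, and Inhba and Nog of 0.78. Other pairs of members came close to the second value, such as Bmp2 and Bmp4 (0.78), Bmp2 and Bambi (0.74), and Inhbb and Fst (0.71). The genes most like each in that measure, of 13528 searched, were Mocs2 (0.95) and Mmp19 (0.94) for Inhba, Yars (0.98) and Ercc1 (0.97) for Inhbb, Ccn2 (0.95) and Plat (0.94) for Fst, and Filip1 (0.97) and Agtr1a (0.96) for Bmp4. Profiles of a library share its depth and cell-free RNA.

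Part of the members' UMIs lay outside the gates. Cells with several gating genes or none held 19.2% of the control and 19.7% of the cKO Inhba UMIs, and 17.4% and 18.0% of those of Inhbb. For Bmp4 they held 35.6% and 50.8%. Among cells with no gating gene Inhba was 4.12-fold higher in cKO (3.65 to 4.66), at 108 and 445 CPM, and 4 of 8 tested members were called there, all higher, against 7.99% of all genes higher.

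The other 68 genes of the BMP and activin pathways were counted by role in the stromal gate, where 11.6% of all genes tested were apart. Of 10 tested ligands 2 were higher and 1 lower, of 12 antagonists 1 was higher, of 12 receptors 1 was higher and 1 lower, none of 8 Smads was apart, and of 7 BMP target genes 1 was lower. Smoc1, which encodes a secreted BMP antagonist, was 3.50-fold higher in cKO (7.23 and 25.3 CPM), and Bmp8a 2.84-fold higher. Eng, the co-receptor endoglin, was 2.56-fold higher. All 3 lay above cell-free levels that were also higher in cKO, at 4.27 and 18.8 CPM for Smoc1, 1.94 and 6.56 for Bmp8a, and 10.9 and 27.6 for Eng. Atoh8, a transcription factor induced by BMP signals, was 3.31-fold lower (44.1 and 13.3 CPM), Acvrl1, a type I receptor, 2.42-fold lower, and Lefty1, an inhibitor of Nodal, 2.52-fold lower on 17 and 21 UMIs. The cKO levels of Acvrl1 and Lefty1 lay under the cell-free level.

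BMP target genes were higher in the cKO muscle gate, with 5 of 6 tested at least 2-fold higher. The Id genes encode inhibitors of basic helix-loop-helix factors. Id3 had 196 and 606 CPM, a ratio of 3.10 (2.58 to 3.75), and Id1 104 and 322 CPM, a ratio of 3.09 (2.40 to 4.02). In the shallow gate 3 of 4 were higher, Id4 by 6.85-fold (2.88 to 19.8), Id2 by 2.59-fold and Id1 by 2.37-fold. Cell-free RNA was higher in these genes too, at 163 and 348 CPM for Id3, 95.4 and 201 for Id1, 317 and 592 for Id2, and 24.8 and 103 for Id4. In the shallow gate Id2, at 215 and 558 CPM, lay under that level in both libraries. Of all genes tested, 6.39% were higher in the muscle and 8.97% in the shallow gate. Markers of other cell types differed in these gates as well. Epithelial markers summed to 201 CPM in control and 20.9 in cKO in the muscle gate, with Cldn3 at 0 in cKO, and to 438 and 31.6 in the shallow gate, with Cldn4 and Cldn3 at 0 in cKO. Immune markers summed to 65.2 and 124 CPM in the muscle gate, with Cd52 at 0 in control, and to 61.5 and 348 in the shallow gate, with Coro1a and Tyrobp at 0 in control. Their part in the target gene values was not tested. In the stromal gate Id2 had 294 and 198 CPM and Id3 672 and 482 CPM, both less than 2-fold apart. The antagonist Smoc2 was 3.97-fold higher in the muscle gate (31.9 and 126 CPM), and the ligand Gdf15 3.95-fold lower, under its cell-free level in both libraries. Eng was 2.60-fold lower there, with 81.2% of the control UMIs in 1 cell, and endothelial markers summed to 120.2 and 8.53 CPM in the gate.

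**Figure D5:**
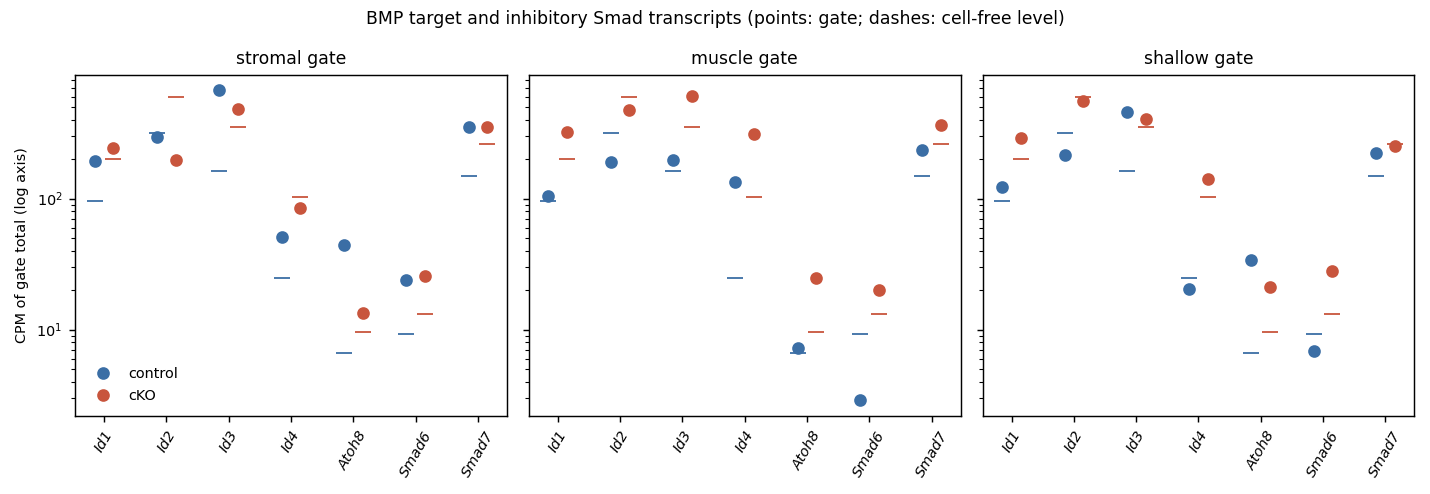
Levels of 5 BMP target genes and the inhibitory Smads Smad6 and Smad7 in 3 gates, in CPM of the gate total on a log axis, with the cell-free level of each library as a dash. Id1, Id2, Id3 and Id4 were higher in cKO in the muscle gate, whereas in the stromal gate Id2 and Id3 were lower.

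In the epithelial gate 12 of 34 tested pathway genes were apart, or 35.3%, beside 33.3% of all genes there. Fstl3, a follistatin-like activin antagonist, was 11.1-fold higher in cKO on 14 and 20 UMIs, with 40.0% of the latter in 1 cell. Bmp1, a protease listed with the ligands by its name, was 3.64-fold higher, and Id2 2.43-fold higher. All 3 lay under the cell-free level in both libraries, Id2 for example at 116 and 281 CPM beside 317 and 592. Acvr1b, the type I activin receptor, was 3.00-fold lower (56.1 and 18.7 CPM), Smad3, which carries activin signals, 2.63-fold lower (155.5 and 59.0 CPM), and the target Msx2 3.03-fold lower. Cell-free RNA was lower in these genes too, at 28.3 and 7.0 CPM for Acvr1b, 84.6 and 24.1 for Smad3, and 6.59 and 1.31 for Msx2. In the immune gate 13 of 31 were apart, or 41.9%, beside 19.5% of all genes. Smad7 was 2.24-fold and Smad5 2.05-fold higher, and Smoc2 had 0 and 29 UMIs, at least 4.51-fold higher when 0 is read as up to 3 UMIs; the 95% interval of the ratio starts at 3.44. Smad5 and Smoc2 lay under the cell-free level in both libraries. Gdf15 was 4.28-fold lower there, at 305 and 71.3 CPM, under cell-free levels of 312 and 102 that were also lower in cKO. Eng was 2.71-fold and Acvrl1 2.39-fold lower. The cKO level of Eng, 15.4 CPM, lay under the cell-free level of 27.6 CPM. A single cell held 24.8% of the Eng UMIs of this gate in control and 23.3% in cKO. In the mesothelial gate the co-receptor Tgfbr3 was 2.42-fold and Smad1 2.55-fold higher, in cKO cells that also carried the endothelial markers given above. Smad1 rested on 9 and 28 UMIs, with 55.6% of the control UMIs in 1 cell, and lay near the cell-free level (39.8 beside 49.7 CPM in control, 101.4 beside 100.2 in cKO).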

How the data were processed

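Whole uteri were dissociated and sequenced as 10x 3′ single-cell libraries, 1 control and 1 cKO, each from 3 pooled mice. The authors deposited raw UMI counts per gene and barcode in unfiltered matrices. The file headers name Cell Ranger 4, while the submitters' processing notes name Cell Ranger 6.1.1 and build mm10; the annotation is not given in the sources used here. The members and all gene lists were chosen with earlier results of these data known.

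UMIs were summed per gate and library (Python 3.11.15, scipy 1.17.1). Calls needed a 2-fold ratio and 20 UMIs; log2 ratios add 0.5 UMI. Poisson, Clopper-Pearson and conditional binomial intervals are at 95%, and a count of 0 allows 3 counts. These intervals and limits cover counting error only. Shares were computed after thinning to 1000 or 5000 UMIs, dropping shallower cells. A stromal sub-gate needed at least 2 UMIs of its marker set. Doublets were not removed in the values reported; leaving out cells with a Scrublet score over 0.25 (scanpy 1.11.5), 42 control (1.15%) and 60 cKO cells (1.21%), was 1 of 10 alternatives. Pathway genes named are at most 3 higher and 3 lower per gate, ranked by the interval limit nearer 1; the Id, Smad6 and Smad7 values drawn for 3 gates were chosen after values were seen. Gene positions are from GENCODE M21, which held 32235 of 32285 identifiers (99.8%). The procedure was tested on simulated counts.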

Additional observations from a re-analysis of the deposited data

Results flagged for a closer look

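Bmp2 went in opposite directions in 2 gates. The ratio of cKO to control CPM was 4.35 in the epithelial gate, from 34 and 19 UMIs, and 0.153 in the immune gate, from 250 and 82 UMIs. With 1 library per group the difference between the gates was not tested. In the epithelial gate both levels were under the cell-free level, and in the immune gate 1 control cell held 44.8% of the UMIs.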

How the results depend on the processing

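Of 340 member values under 10 alternatives, 271 stayed within the 95% interval of the reported ratio, 68 lay outside it, and 1 value called apart changed sign: Inhba in the immune gate, at a log2 ratio of -1.01, became 0.76 when cells of several gates were kept. Values not called apart changed sign too, among them Inhba in the muscle gate (0.78 to -0.74) and Inhbb in the epithelial gate (-0.80 to 0.60) after thinning, Fst in the muscle gate without the top cell (-0.60 to 2.99) and Bmp4 in the epithelial gate with 2 UMIs of the gating gene (0.34 to -1.40). The number of members apart in the epithelial gate, 2, became 1 with 2 UMIs of the gating gene, 6 with cells of several gates kept, 4 as a mean of cells, 3 with median-ratio scaling and 1 after thinning to 1000 UMIs. In the stromal gate 1 became 3 with cells of several gates kept. After thinning the count there was also 1, but the gene was Bmp2 in place of Bmp7, which no longer reached 20 UMIs. In the muscle gate 0 became 1 with at least 1000 genes, 2 with 2 UMIs of the gating gene, 2 with cells of several gates kept, 3 as a mean of cells, 1 after thinning and 1 without the top cell of each gene. In the immune gate 4 became 2 after thinning, 3 with cells of several gates kept (the calls of Inhba and Fst were lost and Nog was added) and 3 with the limit on doublet scores (Inhba lost), and in the mesothelial gate 1 became 0 with 2 UMIs, 5 with cells of several gates kept, 0 as a mean of cells and 0 after thinning. The shallow count was 0 in all 10. Fewer genes reach 20 UMIs after thinning: 2 members were left in the epithelial, muscle and immune gates and 0 in the mesothelial gate. Median-ratio scaling shifted log2 ratios by 0.32 in the epithelial and 0.30 in the immune gate. An alternative chosen after seeing the data left out the top cell of the gene in each library for the 12 member values apart in stromal and immune sub-gates. The log2 ratio of Fst in Inmt-Myoc-Scara5 cells then went from 1.83 to -0.16, and that of Bmp2 in macrophages from -1.79 to -1.10. In Hsd11b2-Rorb-Syt2 cells that of Fst went from 2.56 to 6.06, on 1 control UMI, and that of Bmp2 from 2.39 to 3.19, on 2. Grem1 in Cilp-Sfrp4-Gpr83 cells lost its call, with 1 control and 11 cKO UMIs left. No paired analysis was possible because each group is 1 library.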
